A study of Mus musculus with 8 samples.

Results

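The class I histone deacetylases and their corepressors were followed as 9 genes chosen by name: the enzymes Hdac1, Hdac2, Hdac3 and Hdac8, and the complex partners Sin3a, Ncor1, Rcor1, Mta1 and Mta2. All 9 were among the 24420 genes common to the count tables, and all 9 passed the filter on low counts, which kept 14809 genes. The enzymes make up the class that the drug of the study targets. The study asked whether romidepsin moves expression in the prefrontal cortex of Shank3-deficient mice back toward wild type. The 8 poly(A) RNA libraries came from male mice of 5 to 6 weeks, per the labels. The romidepsin group (2 libraries) were heterozygous Shank3+/ΔC mice given romidepsin intraperitoneally at 0.25 mg/kg once daily for 3 days, with tissue taken 1 day after the last dose. The saline group (3 libraries) were Shank3+/ΔC mice given saline, and the wild-type group (3 libraries) were male littermates for which the labels name no treatment. Both Shank3-deficient groups carried 1 copy of Shank3 with exon 21 deleted. Since wild type may not have been injected, effects of injection and genotype cannot be told apart, and the labels leave unsaid if libraries are 1 animal each.

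Histone deacetylases remove acetyl groups from lysines of histones and other proteins, and at promoters this is linked to lower transcription. The class I enzymes HDAC1, HDAC2 and HDAC3 work in the nucleus inside large corepressor complexes, while HDAC8 acts on its own and is known for deacetylating the cohesin subunit SMC3. Sin3a is the scaffold of the Sin3 complex, Mta1 and Mta2 hold the deacetylases in the nucleosome remodeling NuRD complex, Rcor1 (CoREST) links them to the demethylase KDM1A, and Ncor1 binds and activates HDAC3 for nuclear receptors. In neurons HDAC2 is known for restraining synaptic and memory genes. Romidepsin is a cyclic peptide that, once reduced in the cell, binds the zinc in the active site of class I enzymes. It blocks the proteins, so transcript levels do not report whether the drug acted.

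The libraries held 7783538 to 15156318 counts on genes. Saline replicate 2 and wild-type replicate 3 stood at opposite ends of the first principal component (26.6% of the variance), with scores of 35.1 and -24.2 against -9.96 to 1.26 in the other 6 libraries. Shank3, at 315 and 313 CPM (read counts scaled to library size) in the romidepsin group, 316, 252 and 301 CPM in the saline group and 299, 308 and 348 CPM in wild type, did not pass in any comparison. Reads from the other exons of the shortened copy are counted too, so this does not check the genotype. The labels give the cell type as neurons, but the tissue as slices, and all 9 neuron markers, all 6 astrocyte, all 7 oligodendrocyte lineage, all 6 microglia and all 7 endothelial and mural markers were read in every library. In RNA from such mixed tissue, fewer cells of a type and less RNA per cell cannot be told apart. The 7 endothelial and mural markers summed to 182 to 220 CPM in the romidepsin group, 136 to 196 CPM in the saline group and 202 to 243 CPM in wild type. In the other marker lists the saline and wild-type sums overlapped. Oligodendrocyte lineage markers summed to 2754 to 5030 CPM in the saline group and 2826 to 4530 CPM in wild type, and 6 olfactory and subcortical markers to 27.0 to 45.5 CPM and 24.5 to 29.6 CPM. Neuron markers summed to 12437 to 12509 CPM in the romidepsin group and 11658 to 12153 CPM in the saline group. The part of any list in the results below was not tested.

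None of the 9 transcripts passed the test in any comparison. With edgeR's quasi-likelihood test and Benjamini-Hochberg adjustment over 14809 genes, 0 of 9 passed an adjusted p under 0.05 in the saline group against wild type, where 0.00675% of all genes passed. The same was true of 0 of 9 in the romidepsin group against the saline group (background 0%) and of 0 of 9 in the romidepsin group against wild type (background 0.00675%). DESeq2 and limma-voom also called 0 of the 9. At an unadjusted p under 0.05 the counts were 0, 0 and 1 of 9, where 8.39%, 3.26% and 3.24% of all genes fell below that level in the same order. The only gene past the adjusted threshold was the pseudogene Tmem181b-ps, in both comparisons with wild type.

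**Figure D1:**
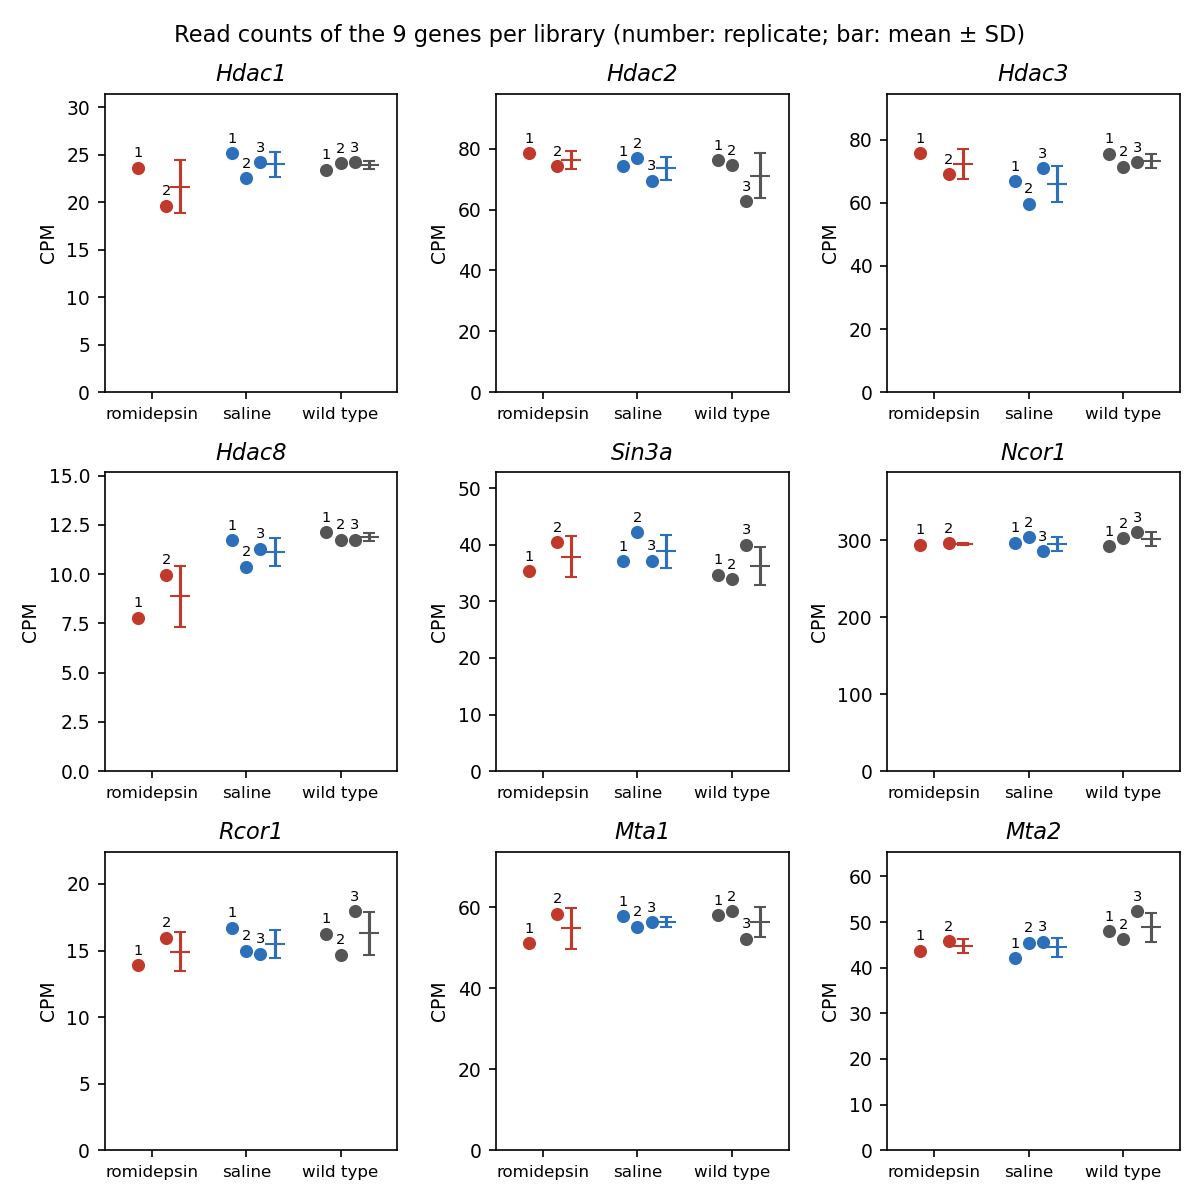
Levels of the 9 genes in CPM, on axes that start at 0. Each point is 1 library with its replicate number, in the romidepsin, saline and wild-type groups from left to right, and bars give the mean ± SD of the group (n = 2, 3 and 3). The groups lie close together for every gene, and Hdac8 is the gene in which both romidepsin libraries (7.78 and 9.98 CPM) lie below all 6 others.

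Hdac8, the class I enzyme that works outside the corepressor complexes, showed the largest difference of the 9 under romidepsin and was also the least abundant. It lies on chromosome X (102284638 to 102505381, GRCm38) and stood at 7.78 and 9.98 CPM in the romidepsin group, 11.7, 10.4 and 11.3 CPM in the saline group and 12.1, 11.7 and 11.8 CPM in wild type. Both romidepsin libraries lay below the other 6, and the highest saline library lay just under the lowest in wild type. The romidepsin group averaged 8.88 ± 1.55 CPM (SD, n = 2) and wild type 11.9 ± 0.216 CPM (n = 3), a 0.747-fold level (95% interval 0.586 to 0.953). This had an unadjusted p of 0.0221 by edgeR's quasi-likelihood test, where 1.78% of all genes were lower at an unadjusted p under 0.05, and an adjusted p of 0.999. Against the saline group (11.1 ± 0.691 CPM, n = 3) the level was 0.795-fold (interval 0.621 to 1.02, unadjusted p = 0.0665). Of all genes, 10.2% were lower without overlap in the romidepsin group against the saline group and 9.08% against wild type.

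The Hdac8 difference rested on few reads, and its size depended on which romidepsin library was used. Counts were 79 and 97 in the romidepsin group, 179, 99 and 88 in the saline group and 144, 156 and 150 in wild type. The 79 reads of romidepsin replicate 1 carry an exact Poisson 95% interval of 62.5 to 98.5, which covers counting error only. Without that library the log2 fold change against wild type was -0.25, against -0.42 with all libraries, and against the saline group it was -0.16, against -0.33. Without romidepsin replicate 2 the values were -0.61 against wild type and -0.52 against the saline group. Each of these leaves 1 romidepsin library, whose spread is assumed to be that of the other groups. The sign was negative in all 15 alternative settings of each of these comparisons, and the adjusted p did not go below 0.848.

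Hdac1, on chromosome 4 (129516104 to 129542646), differed little between the genotypes. It stood at 23.6 and 19.7 CPM in the romidepsin group, 25.2, 22.5 and 24.2 CPM in the saline group and 23.4, 24.1 and 24.2 CPM in wild type. Romidepsin replicate 2 was the lowest of the 8 libraries, and romidepsin replicate 1 lay among the others. The fold for saline over wild type was 1.00 (95% interval 0.860 to 1.17), and that for romidepsin over saline was 0.902 (interval 0.755 to 1.08). On the log2 scale the second was -0.15, but -0.02 without romidepsin replicate 2 and -0.29 without romidepsin replicate 1. Part of the reads of this gene cannot be assigned: of its 50-base windows in the GENCODE M21 transcripts, 35.5% also occur in transcripts of other genes, 31.7% in Gm10093 alone. Reads with more than 1 alignment were tallied apart from the genes in these tables, so the Hdac1 level may be understated.

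Hdac2, the close relative of Hdac1, was read more often (chromosome 10, 36974297 to 37001889). It stood at 78.5 and 74.2 CPM in the romidepsin group, 74.2, 76.8 and 69.5 CPM in the saline group and 76.3, 74.5 and 62.7 CPM in wild type. The groups overlapped, and the lowest library was wild-type replicate 3. The fold for saline over wild type was 1.03 (95% interval 0.909 to 1.18), and that for romidepsin over saline was 1.04 (interval 0.897 to 1.20). The direction of the difference between saline and wild type turned without wild-type replicate 3 (log2 fold change -0.04, against 0.05).

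Hdac3, the enzyme of the NCoR complex (chromosome 18, 37936971 to 37955015), showed the largest difference between saline and wild type among the 9. It stood at 75.7 and 68.9 CPM in the romidepsin group, 66.8, 59.6 and 70.9 CPM in the saline group and 75.5, 71.3 and 72.7 CPM in wild type. The saline and wild-type groups did not overlap, where 6.36% of all genes were lower without overlap. The groups nearly met: the highest saline library was at 70.9 CPM and the lowest wild-type library at 71.3 CPM. The romidepsin libraries overlapped both groups. The saline group averaged 65.8 ± 5.72 CPM and wild type 73.2 ± 2.11 CPM (SD, n = 3 each), a log2 fold change of -0.15 (SE 0.08, unadjusted p = 0.0832, adjusted p = 0.636). It was -0.09 without saline replicate 2, the library with the lowest level. The romidepsin group was at 1.10-fold of the saline group (interval 0.958 to 1.26) and at 0.988-fold of wild type (interval 0.862 to 1.13). The folds of saline over wild type and of romidepsin over saline share the saline libraries, so their opposite signs are not separate observations.

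The transcripts of the 4 deacetylases summed to 179 ± 9.07 CPM in the romidepsin group (n = 2), 174 ± 4.52 CPM in the saline group and 180 ± 8.05 CPM in wild type (n = 3 each). The ranges of the groups overlapped, at 173 to 186 CPM, 169 to 178 CPM and 171 to 187 CPM.

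Among the corepressors, Ncor1 was the most abundant and the steadiest. This platform for HDAC3 on nuclear receptors (chromosome 11, 62315663 to 62457414) stood at 294 and 296 CPM in the romidepsin group, 297, 304 and 286 CPM in the saline group and 292, 302 and 310 CPM in wild type. The groups overlapped, and the highest library was 1.09-fold above the lowest (median over all genes tested, not matched for read depth: 1.38-fold). Its intervals were also the narrowest of the 9, at 0.886 to 1.08 for the saline group over wild type and 0.891 to 1.12 for the romidepsin group over the saline group.

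Sin3a, the scaffold of the Sin3 complex (chromosome 9, 57071991 to 57128368), stood at 35.4 and 40.4 CPM in the romidepsin group, 37.2, 42.2 and 37.2 CPM in the saline group and 34.7, 33.9 and 40.1 CPM in wild type. The groups overlapped, with the highest library in the saline group and the lowest in wild type. The fold for saline over wild type was 1.07 (95% interval 0.924 to 1.24), and that for romidepsin over saline was 0.976 (interval 0.825 to 1.15). Of the exonic bases of Sin3a, 3.81% overlap the antisense gene Man2c1os, and since the strand setting of the counting is not given in the sources used here, their reads cannot be told apart.

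Rcor1, the CoREST scaffold (chromosome 12, 111039367 to 111115902), stood at 13.9 and 15.9 CPM in the romidepsin group, 16.7, 14.98 and 14.7 CPM in the saline group and 16.3, 14.7 and 17.95 CPM in wild type. All groups overlapped. Its intervals were 0.793 to 1.15 for the saline group over wild type and 0.773 to 1.19 for the romidepsin group over the saline group.

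The NuRD subunit Mta1 (chromosome 12, 113098248 to 113137206) stood at 51.1 and 58.4 CPM in the romidepsin group, 57.8, 55.2 and 56.3 CPM in the saline group and 58.1, 59.0 and 52.2 CPM in wild type. The groups overlapped, with a fold of 1.00 for saline over wild type (interval 0.882 to 1.13). Mta2, an alternative subunit at the same place in NuRD (chromosome 19, 8941920 to 8952300), stood at 43.7 and 45.8 CPM in the romidepsin group, 42.1, 45.5 and 45.7 CPM in the saline group and 47.9, 46.2 and 52.4 CPM in wild type. All 5 libraries of the Shank3-deficient groups lay below the 3 wild-type libraries, the nearest by less than 1 CPM. The saline level was 0.907-fold the wild-type level (interval 0.800 to 1.03, adjusted p = 0.683) and the romidepsin level 0.916-fold (interval 0.796 to 1.06, adjusted p = 0.999). Both folds use the same wild-type libraries. Of all genes, 6.36% were lower without overlap in the saline group against wild type and 9.08% in the romidepsin group against wild type. The share of genes with both was not computed.

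**Figure D2:**
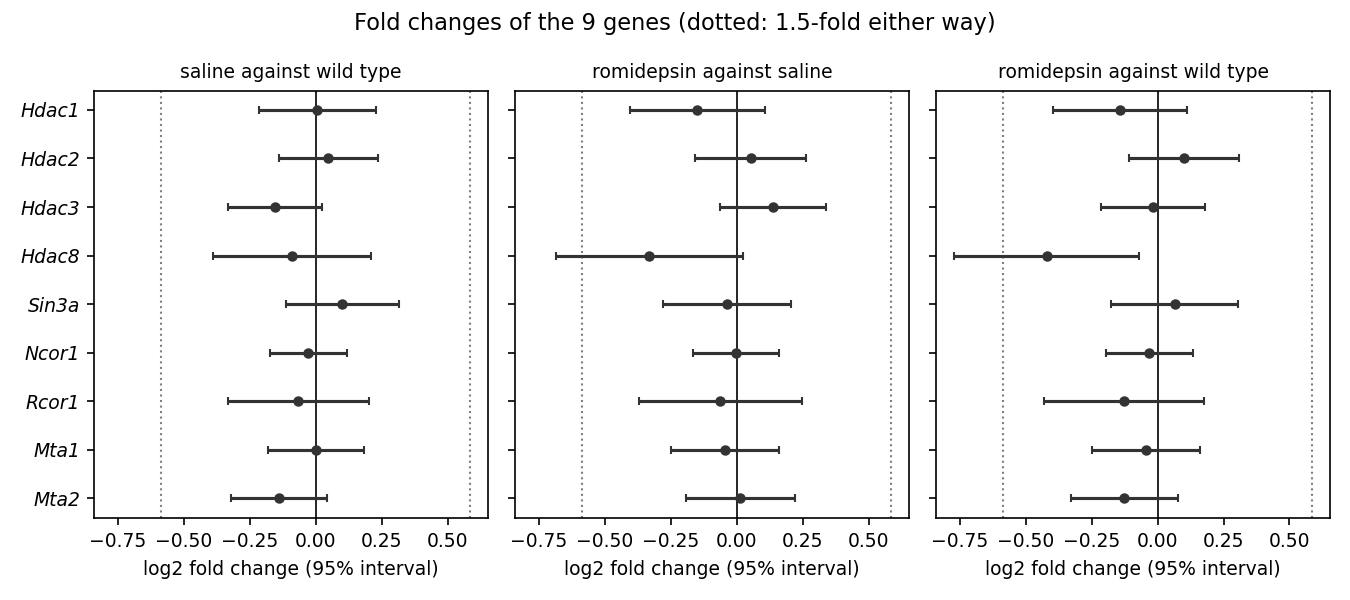
Log2 fold changes of the 9 genes with 95% intervals from edgeR, for the 3 comparisons. Dotted lines mark 1.5-fold in either direction, and only the intervals of Hdac8 in the 2 romidepsin comparisons reach past a dotted line.

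The data bounded the size of any change. In the saline group against wild type, log2 fold changes of the 9 ran from -0.15 to 0.10, and the 95% intervals of all 9 lay within 1.5-fold, as did those of 71% of all genes. In the romidepsin group against the saline group they ran from -0.33 to 0.14, and against wild type from -0.42 to 0.10. The intervals of 8 of 9 lay within 1.5-fold in each of these, with 68.5% and 68.7% of all genes, the exception being Hdac8. The intervals are not adjusted for the number of genes.

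Both directions were represented among the 9 in each comparison. In the saline group against wild type 4 genes were higher, with 51.3% of all genes tested, and 5 lower (median log2 fold change -0.03, against 0.0047 over all genes). Of these, 3 did not overlap between groups (Hdac3, Hdac8 and Mta2, all lower), where 12.6% of all genes did not overlap and 6.36% were lower without overlap. The nearest saline and wild-type libraries were close, at 70.9 and 71.3 CPM for Hdac3, 11.73 and 11.75 CPM for Hdac8 and 45.7 and 46.2 CPM for Mta2. Overlap was counted under the main scaling only. In the romidepsin group against the saline group 3 were higher (background 49%) and 6 lower (median -0.04, against -0.0029), and Hdac8 alone did not overlap (background 20.9%, and 10.2% lower). In the romidepsin group against wild type 2 were higher (background 50%) and 7 lower (median -0.04, against 4.2e-05), and Hdac8 and Mta2 did not overlap (background 18.4%, and 9.08% lower).

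**Figure D3:**
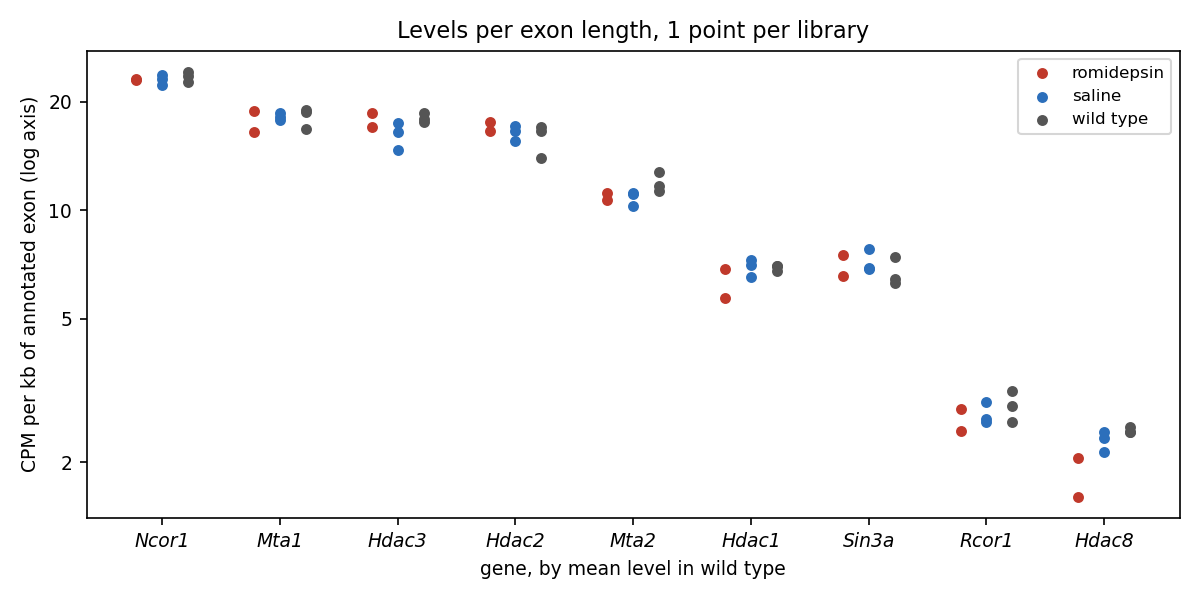
CPM per kb of annotated exon on a log axis, 1 point per library, with the romidepsin, saline and wild-type groups from left to right within each gene. Genes are ordered by their mean level in wild type, from Ncor1 (23.5 CPM per kb) to Hdac8 (2.45 CPM per kb).

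Compared per length, the 9 transcripts covered a wide range. Levels in CPM per kb of exon (union of annotated exons, GENCODE M21) averaged 23.5 ± 0.719 for Ncor1 in wild type (SD, n = 3), then 18.2 ± 1.19 for Mta1, 18.1 ± 0.519 for Hdac3 and 15.9 ± 1.65 for Hdac2. Mta2 followed at 11.9 ± 0.773 CPM per kb, Hdac1 at 6.94 ± 0.126 and Sin3a at 6.73 ± 0.622, and Rcor1 (2.87 ± 0.287) and Hdac8 (2.45 ± 0.0447) came last. Mta1 and Hdac3 did not differ beyond their spread, with Mta1 above Hdac3 in 6 of 8 libraries. Hdac3 and Hdac2 likewise held their order in 6 of 8 libraries and Hdac1 and Sin3a in 5 of 8. Ncor1 stood above Mta1, Hdac2 above Mta2, Mta2 above Hdac1, Sin3a above Rcor1 and Rcor1 above Hdac8 in all 8 libraries.

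That order depended on the length used. By the longest coding transcript Hdac3 came first, at 36.0 CPM per kb, before Ncor1 at 33.3 CPM per kb, and Hdac8 (6.14 CPM per kb) came above Rcor1 (2.87 CPM per kb). Shortening the length of Hdac1 to the share of its 50-base windows found in no other gene gave 10.8 CPM per kb in wild type. This was still below Hdac2. All reads of Hdac1 were kept, so the value assumes that none came from the shared windows. Hdac2 and Hdac3 were thus the main enzyme transcripts per length in this tissue by each measure, and Hdac8 the least.

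The balance between close relatives was measured as a ratio of counts within each library, which needs no scaling. The Hdac1 to Hdac2 ratio was 0.301 and 0.265 in the romidepsin group, 0.339, 0.293 and 0.349 in the saline group and 0.307, 0.324 and 0.386 in wild type. Both romidepsin libraries lay below all wild-type libraries, and overlapped the saline group. The log2 ratio of the romidepsin group was 0.26 below that of wild type (exact permutation test, two-sided p = 0.2, and 0.8 adjusted over 6 tests). The two-sided p doubles the smaller tail, which makes 0.2 the smallest that 2 against 3 libraries can give here. The saline group differed from wild type by -0.05 (exact p = 0.8, where 0.1 is the smallest possible). The Mta1 to Mta2 ratio was 1.17 and 1.28 in the romidepsin group, 1.37, 1.21 and 1.23 in the saline group and 1.21, 1.28 and 0.997 in wild type. The groups overlapped, and the lowest value was that of wild-type replicate 3 (exact permutation p = 0.4 for the saline group against wild type). No ratio test passed, and none of the 6 could have at these group sizes.

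All 9 genes varied less between libraries of a group than the median gene. Their residual SD on the log2 scale ran from 0.0399 for Ncor1 to 0.126 for Rcor1 and Hdac8, against a median of 0.151 over all genes tested. Between 1.28% and 38.6% of genes varied less than these. The background was all genes tested, without matching for read depth. Ncor1, the most read of the 9, varied least, and Rcor1 and Hdac8, the least read, varied most. The highest and lowest of the 8 libraries differed by 1.09-fold for Ncor1 to 1.55-fold for Hdac8.

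The other subunits of the same complexes were also without calls. Of 39 further genes, 0 passed in any of the 3 comparisons (edgeR's quasi-likelihood test), with 0, 1 and 0 at an unadjusted p under 0.05 in the saline group against wild type, the romidepsin group against the saline group and the romidepsin group against wild type, where 8.39%, 3.26% and 3.24% of all genes lay under it. In the second of these the gene was the Sin3 subunit Arid4b (log2 fold change -0.21, unadjusted p = 0.0372, adjusted p = 1.00). Of the 39 genes, 18 were higher and 21 lower in saline than in wild-type libraries (51.3% of all genes were higher), 20 were higher and 19 lower in the romidepsin group than in the saline group (49% of all genes higher), and 20 were higher and 19 lower in the romidepsin group than in wild type (50% of all genes higher).

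**Figure D4:**
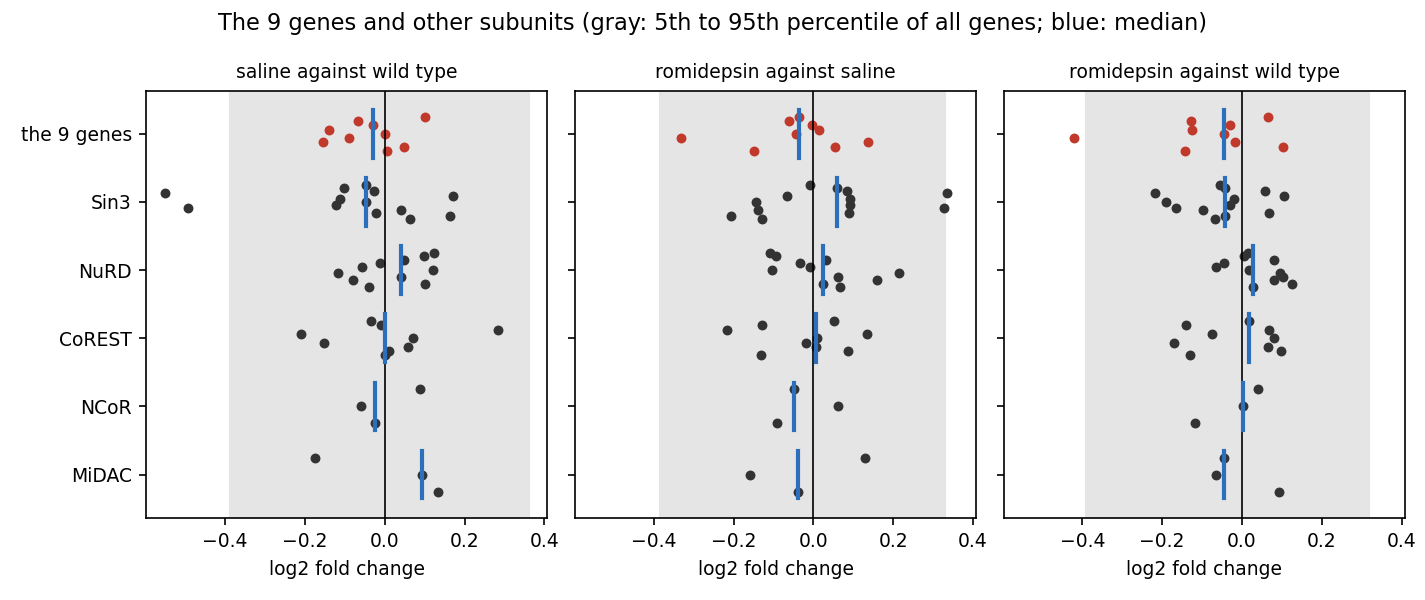
Log2 fold changes of the 9 genes and of the other subunits of the Sin3, NuRD, CoREST, NCoR and MiDAC complexes, 1 point per gene, with the median of each list in blue. The gray band spans the 5th to 95th percentile of all genes tested (-0.39 to 0.36 in the saline group against wild type), and the scarce Sin3 subunit genes Sap30 (-0.55 in the saline group against wild type, 0.33 in the romidepsin group against the saline group) and Fam60a (-0.49 in the saline group against wild type) and Hdac8 (-0.42 in the romidepsin group against wild type) are the points outside their bands.

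By complex, the medians of the lists stayed within 0.1 of zero on the log2 scale in the 3 comparisons. Of 13 further Sin3 subunits 4 were higher and 9 lower in saline than in wild-type libraries (median -0.05), 7 and 6 in the romidepsin group against the saline group (median 0.06), and 3 and 10 in the romidepsin group against wild type (median -0.04). Arid4b, a chromatin-binding Sin3 subunit, averaged 53.3 ± 2.43 CPM in the romidepsin group (n = 2), 61.5 ± 3.39 CPM in the saline group and 54.9 ± 1.38 CPM in wild type (n = 3 each), and did not pass (adjusted p = 0.599 for the saline group against wild type). Of 11 further NuRD subunits 6 were higher and 5 lower in saline than in wild-type libraries (median 0.04), 6 and 5 in the romidepsin group against the saline group (median 0.02), and 9 and 2 in the romidepsin group against wild type (median 0.03). The NuRD helicase gene Chd4 averaged 184 ± 0.123 CPM in the romidepsin group and 165 ± 4.76 CPM in the saline group (unadjusted p = 0.0550 by edgeR's quasi-likelihood test, adjusted p = 0.9996). Its groups did not overlap, where 20.9% of all genes did not overlap in that comparison.

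The smaller complexes also held no gene past the test. Of 9 further CoREST genes 5 were higher and 4 lower in saline than in wild-type libraries (median 0.0019), and likewise 5 and 4 in the romidepsin group against the saline group (median 0.0064) and against wild type (median 0.02). Rcor3, a relative of Rcor1, averaged 14.9 ± 1.32 CPM in the saline group and 17.2 ± 0.822 CPM in wild type (n = 3 each, adjusted p = 0.690 by edgeR). Of the 3 subunits of MiDAC, a mitotic deacetylase complex, Trerf1 had the smallest p in the saline group against wild type, at 29.2 ± 1.68 CPM and 33.0 ± 3.50 CPM (adjusted p = 0.655).

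None of 4 genes known to be raised by deacetylase inhibitors in cultured cells passed the test 1 day after the last dose. Of Cdkn1a, H1f0, Gsn and Txnip, 1 was higher and 3 were lower in the romidepsin group than in the saline group. In that comparison 49% of all genes were higher. The median log2 fold change of the 4 was -0.09, against -0.0029 over all genes, and 0 passed (background 0%). Txnip, a thioredoxin inhibitor gene, stood at 19.8 and 14.5 CPM in the romidepsin group and 26.7, 19.8 and 20.01 CPM in the saline group, with 17.7, 18.8 and 19.8 CPM in wild type. The fold for romidepsin over saline was 0.767 (unadjusted p = 0.0359 by edgeR's quasi-likelihood test, adjusted p = 0.9996), where 3.26% of all genes lay under an unadjusted p of 0.05. That for romidepsin over wild type was 0.917 (unadjusted p = 0.460 by the same test). On the log2 scale the fold over saline was -0.38, but -0.18 without romidepsin replicate 2, -0.21 without saline replicate 1 and -0.63 without romidepsin replicate 1. The cell cycle inhibitor gene Cdkn1a stood at 32.5 and 40.7 CPM in the romidepsin group and 29.7, 40.5 and 31.3 CPM in the saline group, which overlap. The linker histone gene H1f0 stood at 92.2 and 88.9 CPM in the romidepsin group, 94.9, 96.1 and 108 CPM in the saline group and 95.9, 86.8 and 80.2 CPM in wild type. Both romidepsin libraries lay below the saline libraries, where 10.2% of all genes were lower without overlap, and inside the range of wild type.

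For each of the 9 genes the gene with the most similar pattern over the 8 libraries was sought among 13339 others, as the smallest root mean square difference in log2 CPM after centring each gene on its mean. The closest matches were Ppp1r2 for Ncor1 (0.0186), Lrtm2 for Hdac2 (0.0275), Ctr9 for Mta1 (0.0284), Pitpnm3 for Hdac3 (0.0297) and Gnal for Mta2 (0.0320). For the remaining genes they were Zfp277 for Sin3a (0.0415), Nxt2 for Hdac1 (0.0441), Dnlz for Rcor1 (0.0446) and Zbtb1 for Hdac8 (0.0549). The median over all genes searched lay between 0.14 and 0.24, but the smallest of 13339 values would lie below it for any gene. The difference is also smaller for a gene that varies little, as Ncor1 does. None of the 9 was the closest match of another, which tells little with so many genes searched.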

How the data were processed

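Each library has 1 deposited table of unnormalized whole-number read counts, by gene symbol. Per the submitters' processing notes, the authors used bcl2fastq 2.17.1.14, TopHat2 2.1.1, HTSeq 0.6.1 and the mm10/GRCm38 genome. Annotation, strand setting and statistical model: not given in the sources used here. HTSeq's 5 summary entries, absent from the table of saline replicate 1, were left out. Elsewhere 32.4% to 35.3% of the entries fell on genes and 15.5% to 18.1% were alignments that were not unique. No libraries were identical.

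Counts were filtered with filterByExpr (9611 genes removed), scaled by TMM and fitted with edgeR 4.0.16 in R 4.3.3, as a robust quasi-likelihood model with 1 term per group over all 8 libraries. P-values were adjusted over 14809 genes and measure only the spread between these libraries, which may be technical. DESeq2 1.42.0 and limma 3.58.1 (voom) were alternatives, with other scalings, no filter, 2 groups only, a replicate block and each library left out. The fit was tested on simulated data. Ratios were tested by exact permutation. Log2 levels used a prior count of 2. Coordinates are RefSeq's for GRCm38.p6, and exon lengths GENCODE M21's.

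The members and gene lists were chosen with earlier results of these data known. The naming rule takes the 9 members, Shank3 and, of each list, up to 3 genes with the smallest p in a comparison. Tmem181b-ps, Gm10093 and Man2c1os were named after their values or loci were seen. A listed complex subunit is not reported here, and the counts of subunits leave it out.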

Additional observations from a re-analysis of the deposited data

How the results depend on the processing

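Of the 9 genes, 0 passed under any of the 15 alternatives in any comparison (smallest adjusted p 0.514). Of 405 fold changes under alternatives, 24 had the opposite sign, all of small differences, and 14 of the 27 fold changes kept their sign throughout. The cause was not tested. With each library left out, log2 fold changes of the saline group over wild type ranged from -0.0347 to 0.0493 for Hdac1, -0.0399 to 0.10 for Hdac2, -0.14 to 0.0058 for Rcor1 and -0.058 to 0.0321 for Mta1. Those of the romidepsin group over the saline group ranged from -0.13 to 0.0589 for Sin3a, -0.0271 to 0.0185 for Ncor1, -0.16 to 0.0362 for Rcor1, -0.14 to 0.0499 for Mta1, -0.026 to 0.047 for Mta2 and -0.33 to 0.00 for the MiDAC scaffold gene Elmsan1. Those of the romidepsin group over wild type ranged from -0.0853 to 0.0484 for Hdac3, -0.0342 to 0.16 for Sin3a, -0.14 to 0.0505 for Mta1, -0.0657 to 0.039 for Shank3, -0.36 to 0.0859 for Gps2 and -0.31 to 0.0122 for Cdkn1a. The log2 difference of the Hdac1 to Hdac2 ratio ranged from -0.12 to 0.0494 for the saline group against wild type, and that of the Mta1 to Mta2 ratio from -0.12 to 0.0059 for the romidepsin group against the saline group and from -0.0268 to 0.15 against wild type.

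Same-numbered libraries had deviations from their group means correlated at -0.18 to 0.10, others at -0.16 to 0.24. For the romidepsin group these values cannot decide if the replicate numbers pair the libraries, since its 2 libraries deviate by equal and opposite amounts. Between saline and wild type, same-numbered libraries were correlated at -0.18, 0.02 and -0.04 and others at -0.16 to 0.24, so same numbers did not go with higher values. With 3 libraries a group, whose deviations sum to 0, these few values do not settle the pairing. With a replicate block, the sign turned for Hdac2 in romidepsin against saline (-0.0070), and in romidepsin against wild type for Hdac3 (0.0057), Shank3 (0.0281) and the Mta1 to Mta2 ratio (-0.0268). Calls over all genes were 4 with the block in saline against wild type and 0 in romidepsin against wild type (1 each without it), and 0 in romidepsin against saline as without it. In saline against wild type they were 12 with no filter, 29 with DESeq2, 2 with 2 groups fitted and 1 to 54 with a library left out (54 without wild-type replicate 3, 9 without saline replicate 1, 3 without saline replicate 3). In romidepsin against saline they were 2 with DESeq2 and 0 to 3 with a library left out. In romidepsin against wild type they were 0 with upper-quartile scaling, 2 with no filter, 4 with DESeq2 and 0 to 3 with a library left out. The other scalings moved the median of all genes by at most 0.0187 in any library. Among the 9 genes Hdac8 had the fewest reads, at 79 to 179 a library. Leaving out a romidepsin library leaves 1, which is assumed to vary like the other groups.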
